A study of Mus musculus with 4 samples.

Results

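The genes described here encode the proteins of the cytoplasmic ribosome. They were chosen by name: every gene name on the array made of Rpl or Rps and a digit, with Rplp0, Rplp1, Rplp2 and Rpsa, and without the Rps6k kinases, pseudogene names and clone names. Of 110 names that start with Rpl or Rps, 10 Rps6k names and 15 pseudogene names were left out. This gave 85 of the 31659 gene names on the array, measured by 185 probes. Of the 85 genes, 43 encode proteins of the large (60S) subunit, 30 encode proteins of the small (40S) subunit, 3 encode the P stalk and 8 are paralogs of another member. The remaining one, Rps19bp1, fits the rule by its name but encodes a protein that binds Rps19 and is not part of the ribosome.

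RNA came from preproB cells, an early B-lineage stage, sorted from the marrow of C57BL/6 mice as cells without lineage markers that carried B220 and CD43 but neither BP1 nor CD24. The EnhDel mice had loxP sites on both alleles around the enhancer at +37 kb of Cebpa and the Mx1-Cre transgene, whose promoter responds to interferon. The control mice had the same floxed enhancer without Cre. Both groups received 3 doses of pIpC, an interferon inducer, 5 weeks before the cells were taken, so the presence of Cre and the loss of the enhancer cannot be told apart. Each group had 2 samples, each on 1 single-colour (Cy3) array. The EnhDel samples and control replicate 2 were labelled as males of 24 weeks, and control replicate 1 as a female of 26 weeks. The labels do not say whether an array holds 1 animal or a pool, and the p-values cover only the spread among these 4 samples, which may in part be technical. The question of the design is how RNA levels in preproB cells differ when this enhancer has been deleted.

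A ribosome joins a small subunit, which reads the mRNA, to a large subunit, which links amino acids, and cells keep the amounts of its proteins in balance. In mammals the mRNAs of these proteins begin with a run of C and T bases, the terminal oligopyrimidine tract, through which growth signals set how strongly the mRNAs are translated. Mutations in several of the genes cause Diamond-Blackfan anaemia in humans, a failure of red cell production, and free ribosomal proteins can stabilise p53.

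Runs of C and T bases near the start site, which the rule did not use, were more frequent in these genes than over all genes. The search took runs near the start, which need not begin the mRNA. RefSeq promoter windows (build GRCm38.p6) were matched by symbol for 64 of the 85 genes. A run of at least 8 C or T bases touching the 10 bases on either side of the start was found in 29 of the 64 genes, or 45.3%, against 15.8% of the 27025 genes with a window. Runs of at least 10 bases were found in 35.9% of the ribosomal protein genes and in 8.1% of all genes. The following 40-base stretches, 20 bases before and 20 bases from the start, read along the gene, show 4 genes with a long run and, for comparison, the pair of paralogs with the largest differences between groups. Capitals mark the longest C/T run near the start. Rplp2 lies at chr7:141447631-141447670 (plus strand), Rps6 at chr4:86857348-86857387 (minus), Rpl35 at chr2:39005112-39005151 (minus), Rps10 at chr17:27635225-27635264 (minus), Rpl3l at chr17:24727806-24727845 (plus, the upstream start) and Rpl39l at chr16:10170208-10170247 (plus).
Rplp2: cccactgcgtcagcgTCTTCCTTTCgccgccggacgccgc
Rps6: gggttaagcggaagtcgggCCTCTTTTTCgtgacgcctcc
Rpl35: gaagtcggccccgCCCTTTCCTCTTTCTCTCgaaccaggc
Rps10: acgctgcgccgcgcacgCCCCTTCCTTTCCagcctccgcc
Rpl3l: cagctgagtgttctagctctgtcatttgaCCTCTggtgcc
Rpl39l: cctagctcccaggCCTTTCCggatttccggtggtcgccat
In the full windows, 250 bases before to 50 after the start, 3 motifs were searched on both strands. CCGGAAG was found in 40.6% of the ribosomal protein genes and 9.9% of all genes, AAGATGGC in 9.4% and 3.2%, and CTTTCC in 54.7% and 29.3%. CTTTCC can lie within a C/T run. These matches describe the letters only and were not set against the arrays.

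The 4 arrays shared 1 slide and 1 scan. Of 39429 probes, 59.6% to 64.9% were well above background on each array, no spot was saturated and no ribosomal protein spot was marked as an outlier. The processed signal at the 75th percentile was 970 and 1039 on the EnhDel arrays and 1015 and 1138 on the control arrays, and each array was scaled to it on the log2 scale. Cebpa itself had a processed signal of 125 and 287 on the EnhDel arrays and 1271 and 927 on the control arrays. A pair of libraries went against their labels. EnhDel replicate 2, labelled male, had Xist signals of 597 and 1551 on its 2 probes, and on the other 3 arrays neither probe was well above background. Its Y-linked Ddx3y signal was 1560, against 3624 on EnhDel replicate 1 and 3116 and 3474 on the control arrays. Control replicate 1, labelled female, was one of the arrays without Xist, and its Ddx3y signal was close to that of the arrays labelled male without Xist. The labels are kept below, and values without one of these libraries are given for the family, for the genes whose groups do not overlap and for Vim.

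The ribosomal protein genes differed little between the groups, and they moved together by array more than by group. A gene is given by its brightest probe, and a gene was tested if that probe was well above background on both EnhDel or both control arrays, which 84 of the 85 genes were. The exception was Rpl10l, a testis paralog of Rpl10, whose 2 probes were not well above background on any array. By limma, 0 of the 84 genes passed an adjusted p of 0.05, against a background of 0% of the 19393 genes tested. At an unadjusted p under 0.05, 1 gene, Rpl3l, was lower in EnhDel and none was higher, where the background was 4.17% lower and 6.84% higher. The median difference, EnhDel minus control, was -0.12 on the log2 scale for the 84 genes and 0.06 for all genes tested, and 78 of the 84 genes lay below 0. That sign turns on 1 library. Without EnhDel replicate 2 the median was 0.03 with 24 genes below 0, and without control replicate 1 it was -0.05.

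Against the control mean, the median ribosomal protein gene stood at 0.03 on EnhDel replicate 1 and at -0.29 on EnhDel replicate 2, and at 0.07 and -0.07 on the control arrays. EnhDel replicate 2 was the lowest of the 4 arrays for 77 of the 84 genes and lay below both control arrays for 78. EnhDel replicate 1 lay between the control arrays for 53 genes, above both for 22 and below both for 9. The same split ran through both subunits: EnhDel replicate 2 was lowest for 42 of the 43 genes of the large subunit and 27 of the 30 of the small subunit. Within the groups, replicate 2 was below replicate 1 for 81 of 84 genes in EnhDel and for 82 of 84 in control. The 84 genes made up 8.56% and 7.70% of the processed signal of all tested genes on the EnhDel arrays, and 8.66% and 8.32% on the control arrays. In sorted cells, fewer cells of a type that is rich in these mRNAs and less of these mRNAs per cell cannot be told apart.

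**Figure D1:**
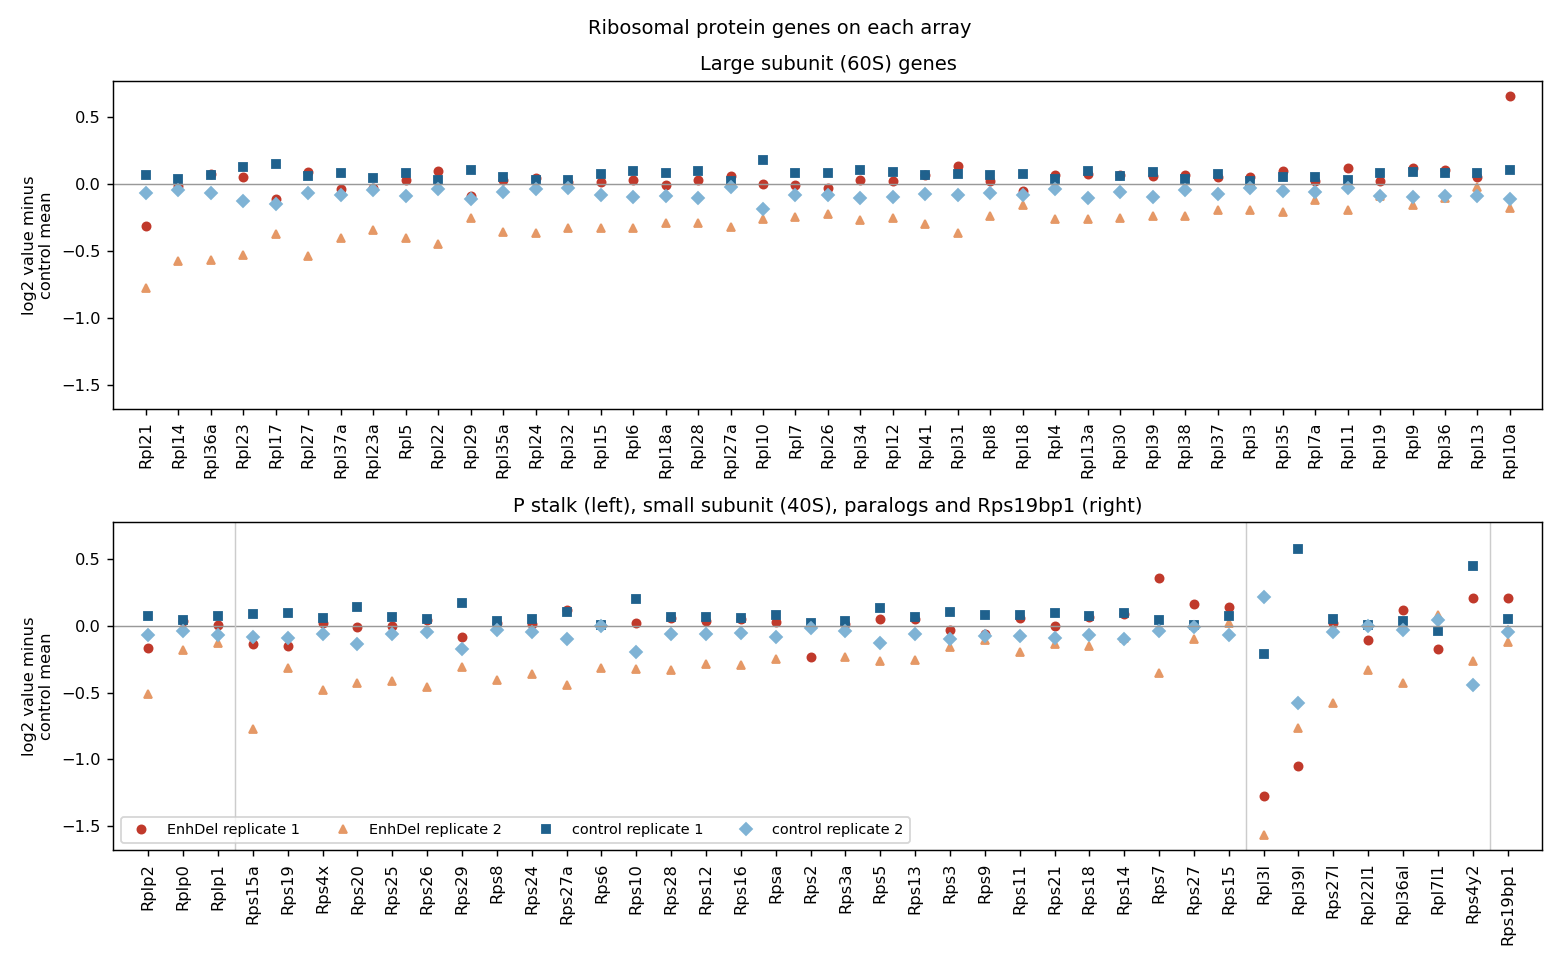
Log2 value of 83 ribosomal protein genes (brightest probe) on each array minus its mean over the control arrays, with EnhDel arrays in red (circles) and orange (triangles) and control arrays in blue (squares and diamonds). The orange triangles of EnhDel replicate 2 lie lowest for 76 of the 83 genes, while EnhDel replicate 1 lies between or above the control arrays for 74.

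The genes kept close to each other. The SD of the difference over the 84 genes was 0.19, against 0.55 over all genes tested, and 90.5% of them lay within 0.25 of 0, against 56.9% of all genes. Over the 76 genes of the 60S subunit, the 40S subunit and the P stalk alone, the SD was 0.11. Over the 7 tested paralogs, which include dim probes, it was 0.53. Most ribosomal protein genes were bright, with a median log2 signal of 6.88 to 7.21 over the array's 75th percentile. All genes tested include dim probes, and a comparison with genes of like signal was not made. Other lists of ribosome genes were also narrow. The SD was 0.11 for the mitochondrial ribosomal protein genes, with 92% within 0.25 of 0, and 0.14 for the ribosome biogenesis genes, with 89.3%. The spread was as narrow within a group. The difference between EnhDel replicates 2 and 1 had an SD of 0.19 over the ribosomal protein genes and 0.61 over all genes. Between control replicates 2 and 1 the SD was 0.17 over the ribosomal protein genes and 0.33 over all genes. With 2 arrays per group, the median 95% interval of a gene reached 0.50 on either side of its difference. For 78 of the 84 genes the interval lay within a 2-fold change in either direction, and for 28 it lay within a 1.5-fold change.

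**Figure D2:**
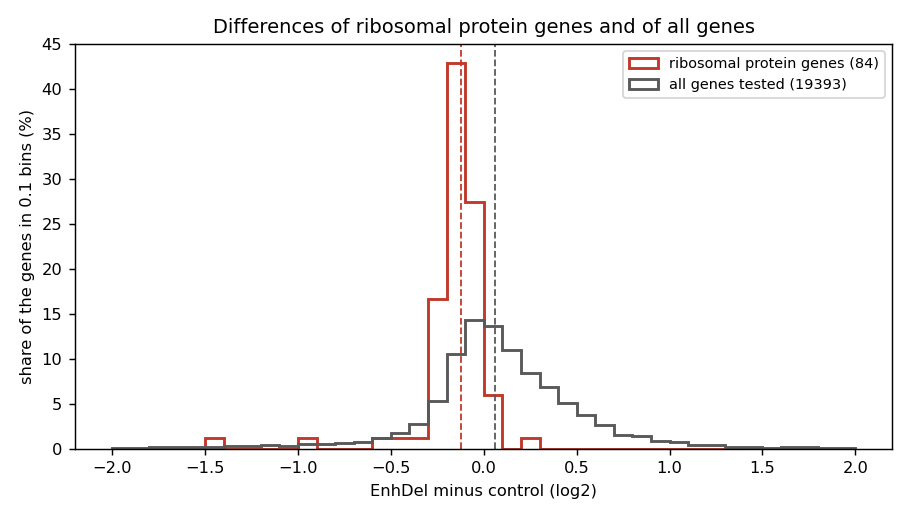
Share of genes by their difference, EnhDel minus control (log2), in bins of 0.1, for the 84 ribosomal protein genes (red) and all 19393 genes tested (grey), with dashed lines at the medians of -0.12 and 0.06. Differences beyond 2 in either direction are not drawn. The ribosomal protein genes form a narrow peak just below 0, with Rpl3l and Rpl39l apart on the left.

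The 2 EnhDel arrays lay below both control arrays for 7 ribosomal protein genes, or 8.33%, and above both for none. The background over all genes tested was 16.6% lower and 27.2% higher. That order depends on the processing. The share of ribosomal protein genes lower without overlap was 45.2% with median scaling (background 31.9%) and 28.6% with quantile normalisation (20.2%). It was 27.4% with cyclic loess (21.9%) and 88.1% with normexp, a background correction (23.3%). The share stayed below the background under normexp with 6 spots of high local background replaced (13.1%, background 16.1%). It also did so in the authors' deposited values (14.3%, background 15%). The 7 genes were Rpl3l, Rpl39l, Rpl21, Rps15a, Rplp2, Rps19 and Rpl22l1. At least 1.5-fold apart were 2 genes, Rpl3l and Rpl39l, both lower in EnhDel, against 5.7% lower and 10.1% higher over all genes.

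**Figure D3:**
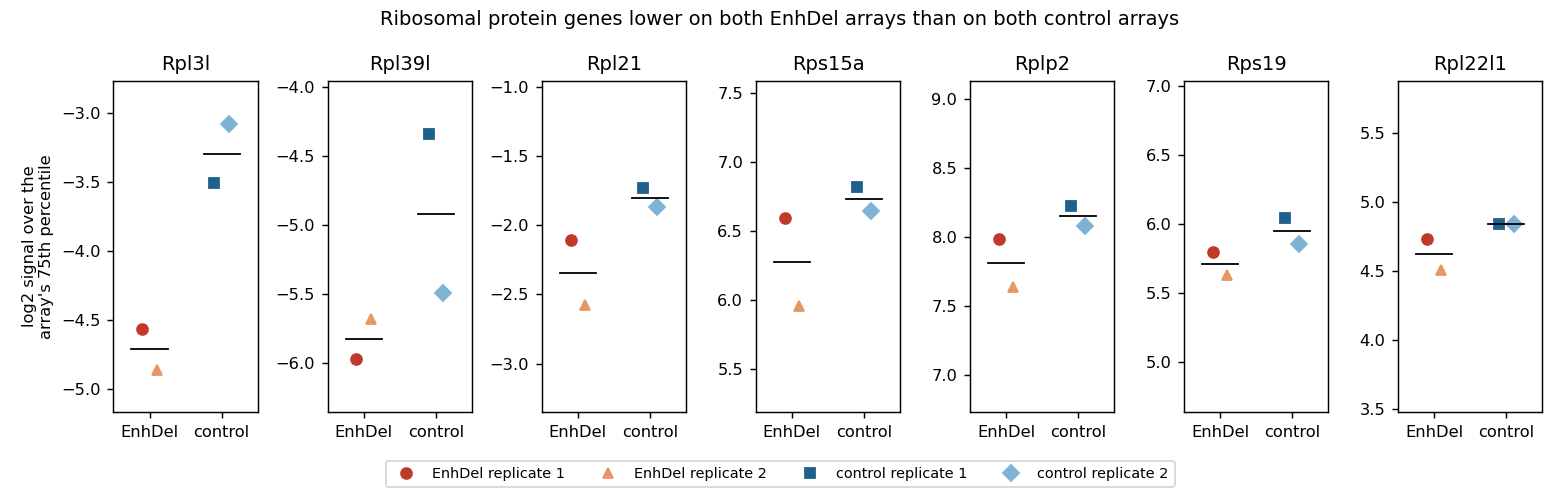
Log2 signal relative to the array's 75th percentile for the 7 ribosomal protein genes whose EnhDel arrays (left) both lie below their control arrays (right). Points are arrays, marked as in the legend, black lines are group means (n = 2), and every panel spans 2.4 log2 units, so that the wide gap of Rpl3l can be set against the narrow one of Rpl22l1.

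The P stalk is the flexible arm of the large subunit that recruits elongation factors, built from Rplp0 as its base and from Rplp1 and Rplp2. Rplp2 had normalised log2 values of 7.98 and 7.64 on the EnhDel arrays and 8.22 and 8.08 on the control arrays. Both EnhDel arrays were lower, and the difference was -0.34 ± 0.19 (SE), with a limma adjusted p of 0.596. It was -0.17 without EnhDel replicate 2. Rplp0 averaged 7.98 ± 0.15 in EnhDel and 8.05 ± 0.06 in control, and Rplp1 averaged 7.08 ± 0.10 in EnhDel and 7.14 ± 0.10 in control (SD, n = 2 each). For both of these genes the groups overlapped, with differences of -0.07 and -0.06. The other Rplp0 probes gave -0.06 and -0.23, each with overlap. The members of the stalk are thus given by values only, since none passed the test.

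The 43 genes of the large subunit had a median difference of -0.12, ranging from -0.54 for Rpl21 to 0.24 for Rpl10a, and 40 lay below 0. Between the arrays of a group, EnhDel replicate 2 was below replicate 1, and control replicate 2 below replicate 1, for each of the 43. The lowest adjusted p among them was 0.474, for Rpl21, which was measured by dim probes only. Next to Rpl21 stood Rpl14 at -0.29 ± 0.24, Rpl36a at -0.25 ± 0.27, Rpl23 at -0.24 ± 0.26 and Rpl17 at -0.24 ± 0.20 (log2 difference ± SE). In each of these 4 the groups overlapped on the brightest probe. The other tested probes of Rpl17 gave 0.03, -0.04, -0.01, -0.01, -0.02 and -0.23. The other Rpl14 probes gave -0.31, with both EnhDel arrays below both control arrays, and -0.25, with overlap. Rpl23 is the member with the most copies of 1 probe, 10 spots, whose log2 values had an SD of 0.03 to 0.08 within an array. That probe is not its brightest, and its difference was -0.04.

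Rpl21 encodes a protein of the large subunit that is mutated in a hereditary form of hair loss in humans. Its brighter probe had normalised log2 values of -2.11 and -2.58 on the EnhDel arrays and -1.73 and -1.87 on the control arrays. The groups did not overlap, and the difference was -0.54 ± 0.22, with an adjusted p of 0.474. It was 0.11 under normexp and -0.31 without EnhDel replicate 2. Its other probe, which lies upstream, had values of -2.37 and -2.73 on the EnhDel arrays and -2.59 and -2.64 on the control arrays. These overlapped, with a difference of 0.06. Both probes were dim beside the family, whose median log2 signal was 6.88 to 7.21 over the arrays. The last 30 of the 60 probe bases show which stretches were read (mm9, chr5:147648267-147648326 for the brighter and chr5:147647577-147647636 for the other, plus strand).
Rpl21 brighter probe: gtgaaagagattgcttggttaacatcctgt
Rpl21 other probe: ggctttcttgttcagattttactaactgtt

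Rpl10a, a protein of the large subunit that sits at the L1 stalk, was at the upper end. Its brightest probe had normalised log2 values of 7.70 and 6.86 on the EnhDel arrays and 7.14 and 6.93 on the control arrays. EnhDel replicate 1 was the highest and EnhDel replicate 2 the lowest of the 4, and the difference of 0.24 ± 0.33 had an adjusted p of 0.818. Without EnhDel replicate 1 it was -0.17. A second probe a few bases upstream gave -0.05, with values of 7.05 and 6.83 on the EnhDel arrays and 7.06 and 6.92 on the control arrays. The probes lie next to each other (mm9, chr17:28467917-28467976 and chr17:28467854-28467913), and the brightest one shares 30 bases with a probe listed under another name.
Rpl10a brightest probe: atgctccaataaacctcactgctgccactc
Rpl10a second probe: ggcaaaacgtgcgggctctgtacatcaaga

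The 30 genes of the small subunit had the same median difference, -0.12, with 28 below 0 and a range from -0.45 to 0.08. The lowest was Rps15a, a protein of the small subunit, with normalised log2 values of 6.60 and 5.96 on the EnhDel arrays and 6.82 and 6.65 on the control arrays. EnhDel replicate 2 stood apart from the other 3 arrays, and the difference was -0.45 ± 0.27 with an adjusted p of 0.613. Leaving out EnhDel replicate 2 gave -0.13. Its other probes gave -0.14 and -0.15, and for both of them the groups overlapped. The highest was Rps15, at 0.08 ± 0.16. Rps6, the protein that S6 kinase phosphorylates, had a difference of -0.16 ± 0.18, with values of 7.20 and 6.88 on the EnhDel arrays and 7.20 and 7.19 on the control arrays.

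Among the genes mutated in Diamond-Blackfan anaemia, 8 are described, and their differences ran from -0.23 (Rps19) to 0.00 (Rps7), with a median of -0.17 and a lowest adjusted p of 0.669. Without EnhDel replicate 2 their median was 0.03 and 7 of the 8 lay above 0. Rps19, the gene mutated most often in that disease, had normalised log2 values of 5.79 and 5.63 on the EnhDel arrays and 6.04 and 5.85 on the control arrays. Both EnhDel arrays were lower, EnhDel replicate 1 only just, and the difference was -0.23 ± 0.17, or -0.15 without EnhDel replicate 2. It was the only one of the 8 without overlap. Rps26 (-0.21 ± 0.23), Rpl5 (-0.18 ± 0.21), Rps24 (-0.17 ± 0.19), Rpl35a (-0.16 ± 0.20) and Rps10 (-0.15 ± 0.23) all lay below 0, and each overlapped. Rpl11, which with Rpl5 binds Mdm2, had a difference of -0.03 ± 0.18. Rps7 had values of 6.63 and 5.92 on the EnhDel arrays, the highest and the lowest of the 4, and 6.32 and 6.23 on the control arrays. Rps14, lost in the human 5q- syndrome, had values of 8.21 and 8.03 on the EnhDel arrays and 8.22 and 8.03 on the control arrays, a difference of 0.00 ± 0.17.

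The paralogs, copies that can replace a standard ribosomal protein in particular tissues, held the largest differences of the family. Of the 8 paralogs, 7 were tested, their median difference was -0.22, and all 7 lay below 0. Without EnhDel replicate 2 the median was -0.11 and 4 lay below 0. Rpl3l, the striated-muscle form of Rpl3, had processed signals of 40.9 and 35.8 on the EnhDel arrays and 89.0 and 135 on the control arrays. Both EnhDel arrays were below both control arrays, and the group means were -4.71 ± 0.21 in EnhDel and -3.30 ± 0.31 in control on the normalised log2 scale (SD, n = 2 each). The difference was -1.42 ± 0.23 (SE), or 0.374 of the control level with a 95% interval of 0.245 to 0.572. By limma its unadjusted p was 0.00254 and its adjusted p 0.216, so it did not pass. Its difference was -1.27 without EnhDel replicate 2 and -1.63 without control replicate 1. Its partner Rpl3 had a difference of -0.07 ± 0.17. The interval of Rpl3l alone among the 84 genes left out 0.

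Rpl39l, a form of Rpl39 known from testis, had processed signals of 15.5 and 20.2 on the EnhDel arrays and 49.99 and 25.2 on the control arrays. The EnhDel arrays were lower than both control arrays, the control arrays lay far apart (replicate 2 minus replicate 1 was -1.15 on the log2 scale), and the lowest signal well above background was 12.2 to 14.4 over the arrays. The difference was -0.91 ± 0.43 with an adjusted p of 0.532. Without control replicate 1 it was -0.33, and without EnhDel replicate 2 it was -1.05. The partner Rpl39 gave -0.09 ± 0.19. Both dim paralogs depend on the background correction: under normexp their differences were 0.24 for Rpl3l and 0.93 for Rpl39l, and with 6 spots of high local background repaired they were -0.73 and -0.23. The last 30 bases of their probes are shown because these 2 probes carry the only differences of at least 1.5-fold (mm9, chr17:24872413-24872681 for Rpl3l, whose 60 bases span 269 bases of the genome, and chr16:10174657-10174716 for Rpl39l, both plus strand).
Rpl3l: atcactctgagaaagtcccttctggtgcac
Rpl39l: agtaataaatatgtgaaaccttttgtttcg

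Rpl22l1, the paralog of Rpl22 that Rpl22 represses in mice, had normalised log2 values of 4.73 and 4.51 on the EnhDel arrays and 4.84 and 4.84 on the control arrays. Both EnhDel arrays were lower, and the difference was -0.22 ± 0.16 with an adjusted p of 0.680. It was -0.11 without EnhDel replicate 2. Its only probe shares 30 bases with a probe under another name. Rpl22 gave -0.17 ± 0.24 and overlapped. Rps27l, a p53 target in human cells, had a difference of -0.28 ± 0.25, against 0.03 ± 0.17 for Rps27. Rpl36al gave -0.16 ± 0.23 and Rpl36a -0.25 ± 0.27, and Rpl7l1 gave -0.05 ± 0.17 and Rpl7 -0.12 ± 0.17. The probe named Rps4y2, whose accession is now that of Rps4l, gave -0.03 ± 0.37, and Rps4x gave -0.23 ± 0.23. Rpl10 gave -0.13 ± 0.21, and Rps19bp1 gave 0.04 ± 0.19. In none of the pairs did either gene pass the test, and no test of a difference within a pair was made.

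Many ribosomal protein genes have processed pseudogenes, and a probe may read several of them. Of the 185 probes, 181 were tested, 161 of these lay below 0, and their median difference was -0.11, against 0.06 over all 24287 probes tested. Of the 181 probes, 17 were lower in EnhDel without overlap and 1 was higher. Both are smaller shares than those over all probes, 16.8% lower and 26.9% higher. Of the 54 genes with more than 1 tested probe, 47 had probes within 0.25 of each other and 12 had probes of both signs. The median range between the probes of a gene was 0.09. Of the 184 probes with a position, 12 probes of 6 genes (Rpl13, Rpl31, Rpl36, Rps27, Rps29 and Rps4x) were placed on another chromosome than the gene. Also, 47 probes of 33 genes shared 30 bases with a probe of another name, and these had a median difference of -0.12, against -0.11 for the 134 that did not. Levels from these probes cannot be given to 1 gene copy.

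The probes of Rps24 and Rpl13 differed most after those of Rpl21. Rps24, a protein of the small subunit, has 4 probes with differences from -0.17 to 0.42. The probe at 0.42 ± 0.31 had normalised log2 values of 3.87 and 4.46 on the EnhDel arrays and 4.03 and 3.47 on the control arrays, which overlap, while the brightest probe had 8.19 and 7.82 on the EnhDel arrays and 8.23 and 8.13 on the control arrays. With the mean of the probes in place of the brightest, Rps24 gave 0.02. The position of the probe at 0.42 (mm9, chr14:25312695-25315015, plus strand) spans well over its 60 bases, as do those of 36 probes in all. Rpl13, of the large subunit, has 4 probes from -0.14 to 0.31. The highest lies on chromosome 4 (chr4:10775828-10775887) and not on chromosome 8, where Rpl13 lies, and was the 1 probe with both EnhDel arrays, 5.11 and 5.44, above both control arrays, 5.00 and 4.93. The ends of these probes are shown beside the brightest probe of each gene.
Rps24 probe at 0.42: attggatacagccaaaggagtagatctgtg
Rps24 brightest probe: gagaggacaaataaactaaaaagcttctac
Rpl13 probe on chromosome 4: gtagacccgaggaggcgaaacacgtccacg
Rpl13 brightest probe: atccggaatgtgtacaaaaaggaaaaggcc

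**Figure D4:**
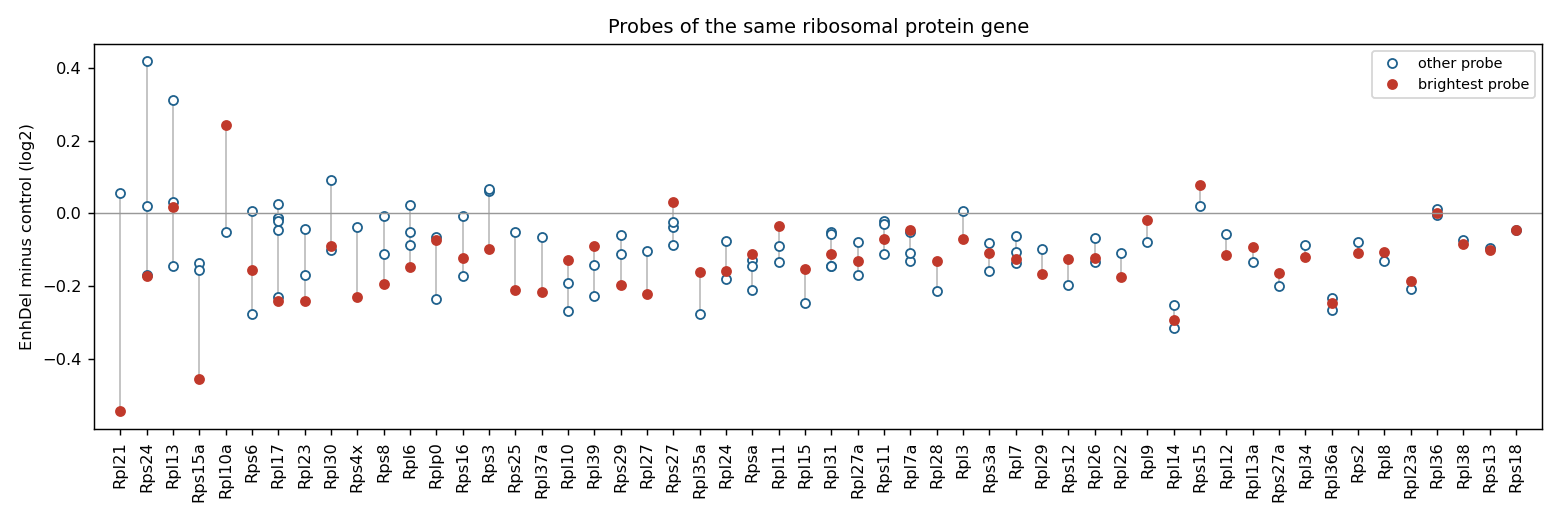
Difference, EnhDel minus control (log2), of every tested probe of the 54 ribosomal protein genes with more than 1 tested probe, ordered by the range between probes. Filled red points are the brightest probe of a gene, open blue points its other probes. The probes of Rpl21 and Rps24 lie farthest apart, and 47 genes have probes within 0.25 of each other.

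The base content of the probes ran from 26.7% to 55.0% G and C, with a median of 45.0%. Over the 181 probes, Spearman's rho between that content and the difference was 0.29, and with the difference between EnhDel replicates 2 and 1 it was 0.26, against 0.06 for control replicates 2 and 1. These are descriptions across probes that share the same 4 arrays. The part of probe composition in the values of EnhDel replicate 2 was not tested.

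Other genes of the translation machinery stood close to the ribosomal protein genes. None of the genes in the following lists passed limma's adjusted p of 0.05. Among the translation, ribosome biogenesis and p53 lists, 2 genes stood at an unadjusted p under 0.05, Riok1 and Phlda3, both lower in EnhDel. Over all genes tested, 4.17% were lower and 6.84% higher at that p. Fau and Rack1, which encode ribosomal proteins under other names, had differences of 0.03 and -0.05. Among 22 other mRNAs with a terminal oligopyrimidine tract and translation factors, 5 (22.7%) had both EnhDel arrays below both control arrays and none above. The backgrounds over all genes tested were 16.6% and 27.2%. The median of the 22 genes was -0.10. Apart from them stood Vim, which encodes the filament protein vimentin, with processed signals of 19617 and 8537 on the EnhDel arrays and 31203 and 31395 on the control arrays and a difference of -1.18 ± 0.47 (adjusted p = 0.474). Without EnhDel replicate 2 that difference was -0.53. The next were the histone chaperone Nap1l1 (-0.32), the splicing regulator Hnrnpa1 (-0.32) and the nucleolar chaperone Npm1 (-0.18). These genes also lay lower on EnhDel replicate 2, with a median of -0.22 against the control mean, and at 0.00 on EnhDel replicate 1.

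The genes that build ribosomes and those that control the translation of their mRNAs lay nearer 0. For 56 ribosome biogenesis genes the median difference was -0.02, with both EnhDel arrays lower for 12 (21.4%) and higher for 6. For this list and those that follow, the background without overlap was 16.6% lower and 27.2% higher. Riok1, a kinase that matures the small subunit, had processed signals of 975 and 1018 on the EnhDel arrays and 1323 and 1477 on the control arrays, and its difference was -0.39 ± 0.14 (adjusted p = 0.451). Wdr12 (-0.35), Gar1 (-0.29) and Emg1 (-0.26) followed. For 20 genes of the mTOR, LARP and S6 kinase pathways the median was 0.05, with 1 gene lower (5%) and 3 higher (15%) without overlap. Tsc2, an inhibitor of mTOR signalling, gave 0.36, Sesn2 0.37, Rheb -0.38 and Sesn1 -0.32. For 75 genes of mitochondrial ribosomal proteins the median was -0.09. Both EnhDel arrays lay lower for 24 of them (32%, above the 16.6% background) and higher for 2 (2.67%, below the 27.2% background). Of 12 tested genes of the p53 response, 3 were lower (25%) and 5 higher (41.7%) without overlap, with a median of 0.15. Phlda3 gave -1.58 ± 0.39, with an adjusted p of 0.324, Pmaip1 0.85 and Zmat3 0.25. Of the 15 pseudogene names left out, 14 were tested, with a median of -0.04 and no gene without overlap.

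Cell division and cell type genes moved with the groups and the arrays beside these values. The 30 genes of S phase and mitosis had a median difference of -1.33, and both EnhDel arrays were lower for 29, against the 16.6% background. Of these genes, 11 stood at an unadjusted p under 0.05, all lower in EnhDel, against a background of 4.17% lower. Their median stood at -0.62 on EnhDel replicate 1 and at -2.07 on EnhDel replicate 2, against the control mean. On control replicates 1 and 2 it stood at -0.16 and 0.16. The ribosomal protein medians were 0.03 and -0.29 on the EnhDel arrays and 0.07 and -0.07 on the control arrays. EnhDel replicate 2 was the lowest array for both lists, and the other arrays did not follow the same order. Of the preproB and gate markers, 10 of 11 were well above background on each array, and Enpep, which encodes the BP1 antigen that the sort left out, was not tested. Their median difference was -0.71, and 7 of 10 were lower and 1 higher without overlap. The largest differences were those of Igll1 (-3.41) and Vpreb1 (-3.07), parts of the surrogate light chain, and of the B-cell factor Ebf1 (-2.35). Their summed processed signal was 123719 and 109015 on the EnhDel arrays and 138230 and 156980 on the control arrays, most of it from Dntt (0.12) and Spn (-0.13). Monocyte markers (4 of 6 well above background in EnhDel and 5 of 6 in control) summed to 4493 and 4600 on the EnhDel arrays and 13002 and 12004 on the control arrays. Neutrophil markers (4 of 6) summed to 977 and 8312 on the EnhDel arrays and 15219 and 19954 on the control arrays. Erythroid markers (4 and 5 of 5 in EnhDel, 3 of 5 in control) summed to 2093 and 3788 on the EnhDel arrays and 395 and 1229 on the control arrays. T cell markers (7 of 7) summed to 19892 and 31775 on the EnhDel arrays and 13931 and 13504 on the control arrays. Plasmacytoid dendritic cell markers (5 of 5) summed to 580388 and 553387 on the EnhDel arrays and 609856 and 620162 on the control arrays. All sums of markers given here are of processed signals before the arrays were scaled. After scaling, the median difference of the plasmacytoid dendritic cell markers was 0.04, with 1 of 5 higher without overlap and none lower. Megakaryocyte markers (4 of 4 in EnhDel, 2 of 4 in control) summed to 354 and 365 on the EnhDel arrays and 276 and 114 on the control arrays, with a median difference of 1.66 and 3 higher without overlap. Of 5 tested markers of mature B and plasma cells, 2 were lower and 3 higher without overlap, and their sums were 2396 and 3569 on the EnhDel arrays and 3486 and 4934 on the control arrays. NK cell markers summed to 13855 and 11342 on the EnhDel arrays and 15263 and 14878 on the control arrays. After scaling, their median difference was 0.48, with 1 of 5 higher without overlap. Mast cell and basophil markers, 2 of which were tested, summed to 341 and 1731 on the EnhDel arrays and 333 and 457 on the control arrays, and both overlapped. At an unadjusted p under 0.05, markers stood in both directions. Lower were 5 of preproB and gate, 4 of monocytes, 1 of neutrophils and 1 of plasma cells. Higher were 4 of T cells, 3 of erythroid cells, 3 of megakaryocytes and 2 of mature B cells. Over all genes tested, 4.17% were lower and 6.84% higher at that p, and 16.6% were lower and 27.2% higher without overlap. The part of dividing cells and of other cell types in the ribosomal protein values was not tested.

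How far EnhDel replicate 2 stood below the other arrays depended on the scaling between arrays. Its median over the ribosomal protein genes, against the control mean, was -0.29 with the 75th percentile, -0.57 with median scaling, -0.07 with quantile normalisation and with cyclic loess, and -0.10 in the authors' deposited values, which have 1 decimal. The median of all genes tested moved from 0.06 to -0.12 with median scaling. The difference of the ribosomal protein genes from it was -0.18 in either case. It could not change, because each of these scalings subtracts a constant from each array. Under quantile normalisation and cyclic loess the ribosomal protein genes lay at -0.07 and -0.05 relative to all genes. With normexp, EnhDel replicate 1 in place of EnhDel replicate 2 was the lowest array (-0.52), and with 6 spots of high local background replaced it stood at 0.03 again.

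**Figure D5:**
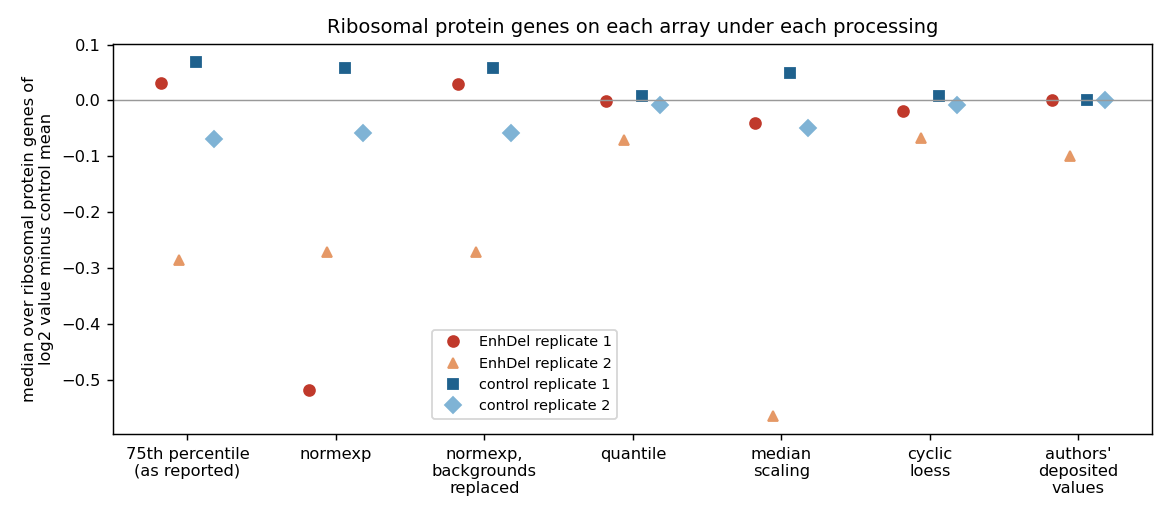
Median over the ribosomal protein genes of the log2 value minus the control mean on each array, under each way of correcting the background and scaling the arrays. The EnhDel arrays are in red (circles) and orange (triangles) and the control arrays in blue. EnhDel replicate 2 lies at -0.29 as reported and at -0.07 to -0.57 under the other scalings, and EnhDel replicate 1 is the lowest array under normexp alone.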

How the data were processed

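The authors deposited 1 scanner file per array and 1 table on a log2 scale. Per the file headers, Agilent Feature Extraction 10.7.3.1 gave the intensity of 44397 spots per array, background-corrected in the processed signal, with probe positions on mm9. Per the file headers the deposited table holds log2 values. How it was normalised is not given in the sources used here. From the scanner files, spots marked as outliers were left out, log2 processed signals were scaled to each array's 75th percentile, spots of a probe were averaged, and a gene was given by its brightest probe. Genes well above background on both EnhDel or both control arrays were tested with limma 3.58.1 (lmFit and eBayes, R 4.3.3) and Benjamini-Hochberg adjustment at 0.05. Fold changes, ratios of group means, are on this scale. The flags on each spot, 0 or 1, are the deposited ones. The fit was tested on simulated data. Intervals are at 95%. The number of arrays limits the precision: with 2 against 2, an exact permutation test cannot go below p = 0.333. The members, the other lists and the rule for named genes were chosen with earlier results of these data known. That rule took the P stalk, the paralogs and their partners, the Diamond-Blackfan anaemia genes, the 5 largest differences each way, the 5 smallest p, members with probes of both signs, and up to 4 genes per list by p. A few of these genes are not reported here by name. Other backgrounds, scalings, filters, probe choices, the replicate number as a block and leaving out each array were tried. Between EnhDel and control, the replicate 2 minus replicate 1 differences had r = -0.02 over 19387 genes. Over the 84 ribosomal protein genes r was -0.15. These values cannot show whether samples sharing a number were handled together. The main fit did not pair the samples. Of the probes, 26581 were matched to RefSeq by accession, and promoter windows came from RefSeq on GRCm38.p6.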

Additional observations from a re-analysis of the deposited data

How the results depend on the processing

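No ribosomal protein gene passed limma's adjusted p of 0.05 under any alternative that kept all 4 arrays. Without EnhDel replicate 1, a fit in which the lone array is assumed to vary like the control arrays, 3208 of all genes (16.5%) passed, 3 of them ribosomal protein genes and all 3 lower: Rpl3l (-1.57, adjusted p = 0.0353), Rpl21 (-0.78, 0.0439) and Rps15a (-0.78, 0.0471). Leaving out 1 array at a time otherwise called 0 to 93 genes in all and 0 ribosomal protein genes. The median difference of the family ran from -0.29 without EnhDel replicate 1 to 0.032 without EnhDel replicate 2, and relative to all genes from -0.35 to -0.012. Genes without overlap ran from 7 to 78 lower and from 0 to 22 higher over these fits. The highest count lower, without EnhDel replicate 1, was 92.9% of the family, above a background of 38.9%. The highest count higher, without EnhDel replicate 2, was 26.2%, below a background of 45.6%.

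Median scaling gave a family median of -0.30, 38 genes lower without overlap (background 31.9%) and 26 calls over all genes. Normexp gave -0.39, or -0.60 relative to all genes, with 74 lower and 1 higher (backgrounds 23.3% and 36.5%), and turned Rpl3l (0.24), Rpl39l (0.93) and Rpl21 (0.11). With high local backgrounds replaced, 11 were lower (background 16.1%). Quantile normalisation gave 24 lower and 11 higher (backgrounds 20.2% and 22.2%), cyclic loess 23 and 9 (21.9% and 21.1%), and the authors' deposited values 12 and 1 (15% and 14.7%). With 1 array left out, Rps27l ran from -0.58 to 0.017 and Rps4x from -0.48 to 0.023, each above 0 without EnhDel replicate 2, as were 54 of the 78 genes that lay below 0 with all arrays. The cause of these changes was not tested. With the replicate number as a block the family median stayed at -0.12 with 0 calls and 7 genes lower, and this block changed no other call.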
